A study of Mus musculus with 6 samples.

Results

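The microRNA (miRNA) miR-494 and 9 of its genomic neighbours, 10 of the 611 mouse miRNAs on the array, were described in lipopolysaccharide-activated macrophages. The members were taken by name: mmu-miR-494, mmu-miR-379, mmu-miR-127, mmu-miR-495, mmu-miR-543, mmu-miR-376a, mmu-miR-376b, mmu-miR-376c, mmu-miR-382 and mmu-miR-410, and each was present on the array. miR-494 was chosen by its detection and its difference between genotypes in these same samples, and the neighbours by their place in the region. Detection and the genotype difference of miR-494 are therefore given as a description, with no p. SDs show the spread between these arrays. Standard errors and intervals come from a fit that also draws on the variance of the other fitted miRNAs. The samples were bone-marrow-derived macrophages (BMDMs) of female C57BL/6 mice, 3 control and 3 knockout. Knockout macrophages came from MxCre-RBP-Jf/f mice, with floxed RBP-J on both alleles, and controls from MxCre-RBP-Jf/+ mice, which carry 1 floxed allele and are titled WT. RBP-J is the DNA-binding partner through which Notch receptors act on their target genes. Both groups carried MxCre, whose interferon-responsive Mx promoter is active in many cell types besides macrophages, and both received poly(I)-poly(C) and then 24 h of lipopolysaccharide (LPS), a bacterial activator of macrophages. No unstimulated or Cre-free group was part of the comparison. Each RNA sample was hybridised to its own 1-colour Agilent array. The labels do not say whether replicates came from separate mice.

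The Dlk1-Dio3 region is an imprinted domain in which the miRNAs and other non-coding RNAs are expressed from the maternally inherited chromosome. Its miRNA genes lie close together on 1 strand and are thought to be cut in large part from long shared transcripts, so several of them are often found in the same cell. The region is known for strong expression in embryo, placenta and brain and for low expression in most adult tissues. A mature miRNA pairs with its target mRNAs mainly through its seed, the bases 2 to 8 from its 5′ end.

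The sequences show that the members differ in their seeds although their genes are neighbours. RefSeq (GRCm38.p6) held a hairpin for all 10 members and the mature arm for 9. The array names give no arm, so the arm is the one that the unmarked name stood for in earlier miRNA nomenclature. The seed is in capitals.
miR-494 (3p arm): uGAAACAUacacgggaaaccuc
miR-379 (5p arm): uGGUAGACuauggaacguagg
miR-127 (3p arm): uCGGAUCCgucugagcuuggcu
miR-495 (3p arm): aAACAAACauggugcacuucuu
miR-543 (3p arm): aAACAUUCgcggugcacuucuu
miR-376a (3p arm): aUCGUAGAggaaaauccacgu
miR-376b (3p arm): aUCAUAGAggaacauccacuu
miR-382 (5p arm): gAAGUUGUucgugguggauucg
miR-410 (3p arm): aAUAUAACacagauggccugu
The 9 sequences had 9 different seeds. Among the 1738 mature sequences in the table, no other carried the miR-494 seed. The mature miR-494 lies at chr12:109715367-109715388 on the plus strand, inside a hairpin that starts at 109715318 and ends at 109715402. The neighbours' hairpins were on the same strand, from 122472 bases upstream of the miR-494 hairpin start (miR-127) to 28397 bases downstream (miR-410). In the RefSeq annotation the miR-494 hairpin overlapped no gene but its own and lay between the long non-coding RNA genes Rian, upstream, and Mirg, downstream. Among the neighbours, miR-410 lay within Mirg and miR-127 overlapped Rtl1, while the other 7 overlapped no other gene. Among the members miR-543 was nearest, 1940 bases downstream, followed by miR-495 at 3436 bases downstream and miR-379 at 6258 bases upstream.

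Sequences that resemble miR-494 or each other are shown because a probe can bind a relative of its target. The longest run of miR-494 found in any other mature sequence was 9 bases. Sequences with a run of this length included miR-6959-5p, and miR-154-3p and miR-485-3p, which come from the same region. Only the first 3 by name were kept, so others may share as many bases. The run that miR-154-3p and miR-485-3p share with miR-494 is in capitals.
miR-494 (3p arm): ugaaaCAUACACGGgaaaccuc
miR-154-3p: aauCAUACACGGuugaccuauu
miR-485-3p: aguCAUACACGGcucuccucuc
The array entries miR-154* and miR-485*, the names these arms carried earlier, were detected on 0 of 6 arrays. Only mature miRNA sequences were searched, for unbroken runs, so binding of the miR-494 probes to other RNA was not tested. Among the members, miR-495 and miR-543 ended in the same 12 bases, GGUGCACUUCUU, and miR-376a and miR-376b differed at 3 positions. The longest run that a neighbour shared with miR-494 was 6 bases, in miR-495 and miR-543. The G and C content of miR-494 was 45.5%, within the 36.4% to 59.1% of the 9 sequences.

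Array-wide measures set the frame for these values. A probe counted as detected on an array when the scanner software marked 50% or more of its unflagged spots as well above background, and a miRNA when any of its probes did. Control arrays detected 133 ± 4 (SD, n = 3) of the 611 miRNAs and knockout arrays 132 ± 7.81 (SD, n = 3). All 6 miRNAs listed as myeloid markers (miR-223, miR-142-3p, miR-142-5p, miR-155, miR-146a and miR-21) were detected on all 6 arrays. The 30 measured markers of stromal, neural, muscle, epithelial, endothelial, erythroid, lymphoid and hepatic cells were detected on none. The lymphoid and hepatic lists held 1 miRNA each. The reference signal, the 75th percentile over 200 probes detected on every array, was 294.2 ± 55.1 (SD, n = 3) intensity units on control arrays and 213 ± 23.2 (SD, n = 3) on knockout arrays. All 3 knockout arrays lay below every control array (two-sided exact permutation p = 0.1, the lowest p this design allows). Arrays were scaled by this signal, so it bears directly on the genotype difference given for miR-494. All arrays lay on 1 slide, replicates 1 and 2 of both genotypes in column 1 and replicates 3 in column 2. Control replicates 1, 2 and 3 lay in slide rows 1, 3 and 1, and knockout replicates in rows 2, 4 and 2. No row held both genotypes, so slide row and genotype cannot be told apart.

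Of the 10 members, miR-494 alone was detected. Its 2 probes were well above background in 118 of 118 unflagged spots across the 6 arrays. The 9 neighbours, read by 20 probes, were well above background in 0 of 1029 unflagged spots. The negative control spots gave the same count, 0 of 2532. The detection calls in the authors' deposited gene-level tables divided the members the same way, with miR-494 called on 6 arrays and each neighbour on 0. In a bulk sample, fewer cells with a miRNA and less of it per cell cannot be told apart, and signals under the background call do not show that a miRNA is absent.

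**Figure D1:**
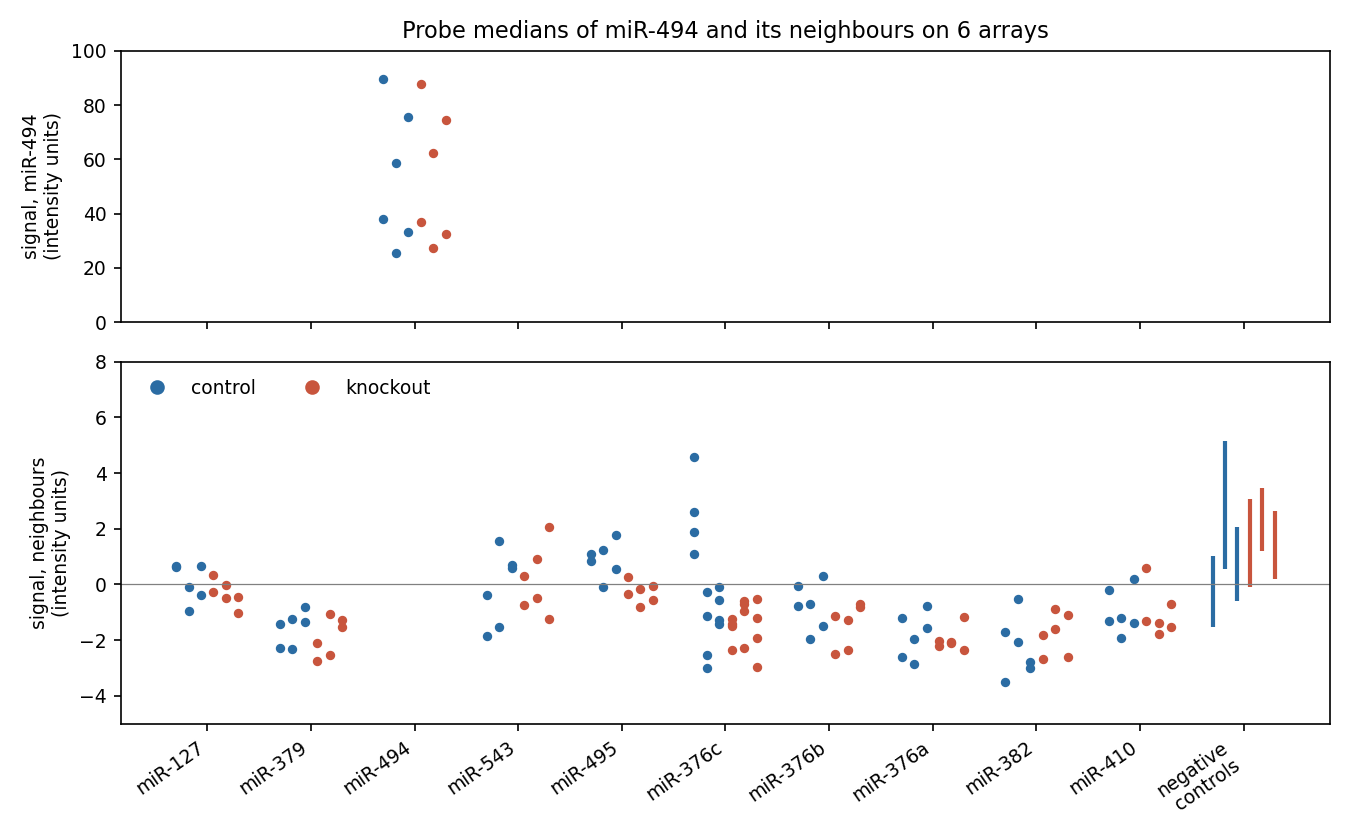
Median background-subtracted signal in intensity units (y axis) of every probe of the 10 members (x axis, in genomic order), 1 point per probe and array, blue for control and red for knockout. The panels have different scales: miR-494 (top) ran from 25.3 to 89.4 units, and the neighbours (bottom) from -3.51 to 4.57 units, beside vertical bars for the range of the 7 negative control probes on each array.

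The neighbours' signals lay around 0 after background subtraction, and 97 of their 120 probe medians were negative. The median negative control probe stood between 0.93 and 2.80 units on the 6 arrays. miR-127, whose gene lies antisense to the imprinted gene Rtl1, ran from -1.02 to 0.677 units over probes and arrays. miR-379, which opens the distal miRNA cluster, ran from -2.77 to -0.82, and miR-410, at its far end, from -1.92 to 0.601. miR-382 ran from -3.51 to -0.529. These ranges covered both genotypes.

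The pair with a common 3′ end, miR-495 and miR-543, had the ranges -0.817 to 1.77 and -1.87 to 2.05 units. Both were below the detection call on every array, so no fold is given. In the miR-376 family, known for adenosine-to-inosine editing of its seeds, miR-376a ran from -2.85 to -0.793 and miR-376b from -2.50 to 0.312 units.

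miR-376c had the highest neighbour signal. Its 4 probes stood between 1.10 and 4.57 units on control replicate 1, and all were at or under -0.105 on the other 5 arrays. On control replicate 1 all 4 lay above the brightest negative control probe of that array, at 1.03 units, together with 1 miR-495 probe at 1.09. On the other 5 arrays no neighbour probe exceeded the brightest negative control. No miR-376c spot carried the flag for well above background, so the gene was not counted as detected on control replicate 1.

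The 2 probes of miR-494 gave the same pattern over arrays at different brightness. The brighter probe read 89.4, 58.5 and 75.6 intensity units on control replicates 1, 2 and 3, and 87.9, 62.3 and 74.6 on knockout replicates 1, 2 and 3. The dimmer probe read 38.1, 25.3 and 33.2 units on the control arrays against 36.8, 27.1 and 32.3 units in the knockout. Both probes were highest on replicate 1 and lowest on replicate 2 within each genotype, and the genotypes overlapped fully. The ratio of the 2 probes stayed between 2.28 and 2.39 on the 6 arrays. Over the 6 arrays their unscaled signals correlated at r = 0.996, a description of points that share array and RNA. Within an array the spots of a probe varied by 3.09% to 11.6% (coefficient of variation), and 2 of 120 spots were left out for a scanner flag. No miR-494 spot was saturated.

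**Figure D2:**
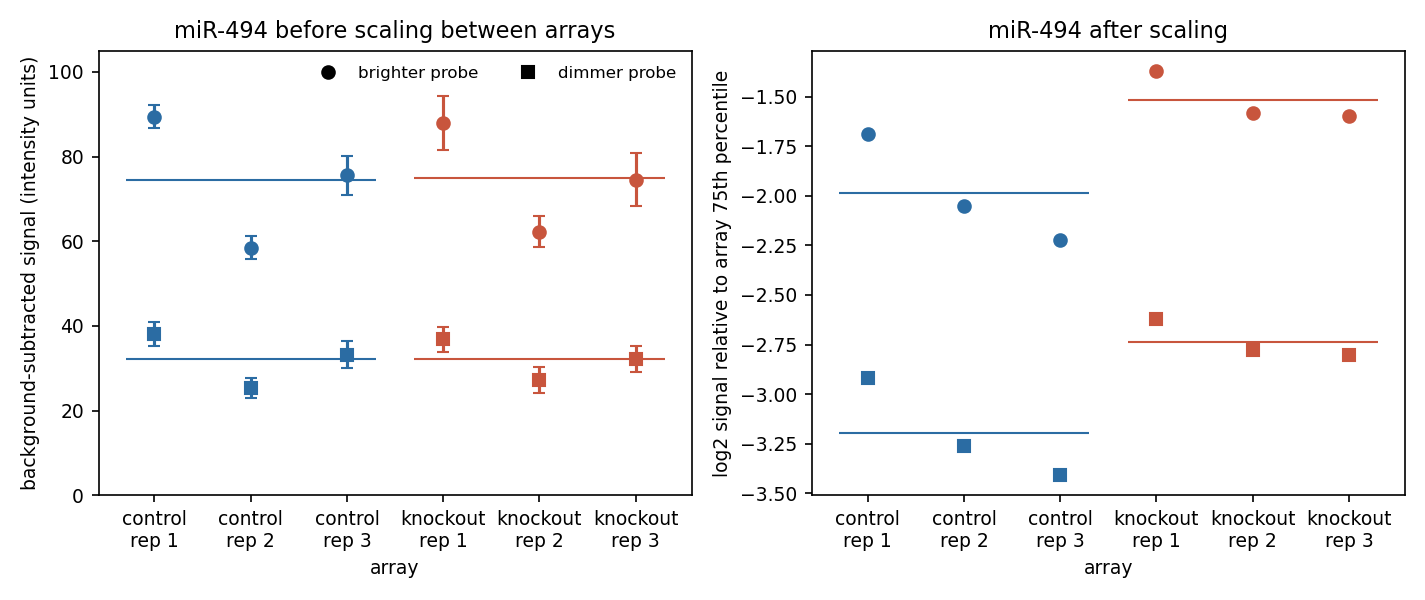
miR-494 on each array (x axis), circles for the brighter and squares for the dimmer probe, blue for control and red for knockout, with horizontal lines at group means. Left, background-subtracted signal in intensity units with error bars of 1 SD over spots: group means of the brighter probe were 74.5 and 74.9. Right, log2 signal relative to the array's 75th percentile, where all 3 knockout arrays lie above every control array for both probes.

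Before scaling, the genotypes had nearly equal miR-494 signal. The brighter probe averaged 74.5 ± 15.5 units (SD, n = 3) over control arrays and 74.9 ± 12.8 (SD, n = 3) over knockout arrays, so that the ratio was 1.01. The dimmer probe averaged 32.2 ± 6.47 (SD, n = 3) against 32.1 ± 4.86 (SD, n = 3), with a ratio of 0.997. On the log2 scale without scaling, the fitted difference was 0.015 (SE 0.22; 95% interval -0.50 to 0.53). Slide column 1, with 4 arrays, gave 0.032, and column 2, with 2 arrays, gave -0.020. The fit did not pair same-numbered arrays, so its interval includes spread that these arrays shared. The unscaled log2 signal of the brighter probe was 6.48, 5.87 and 6.24 on control replicates 1, 2 and 3. On knockout replicates 1, 2 and 3 it was 6.46, 5.96 and 6.22.

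After scaling, miR-494 was higher on every knockout array than on any control array. The scaled log2 signal of the brighter probe was -1.69, -2.05 and -2.22 on control replicates 1, 2 and 3, and -1.37, -1.58 and -1.60 on the knockout replicates. Control arrays averaged -1.99 ± 0.27 (SD, n = 3) and knockout arrays -1.52 ± 0.13 (SD, n = 3), with no overlap. The limma fit gave knockout minus control 0.47 (SE 0.19; 95% interval 0.04 to 0.90), or 1.39-fold, and the dimmer probe gave 0.46. With the 75th percentile over all probes as the reference the value was 0.30 (95% interval -0.19 to 0.79), and in the series matrix 0.29 (-0.02 to 0.61). The interval included 0 under 10 of 19 alternative settings, among them 5 of the 6 fits that left out 1 array. Within slide column 1 the scaled difference was 0.39, and within column 2 it was 0.62. The scaled difference thus differs from the unscaled 0.015 by the lower reference signal of the knockout arrays. The source of that lower signal was not tested.

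The whole table bounds what can be read from this. miR-494 and 133 other miRNAs were detected on at least 3 arrays and entered 1 fit. Over this whole table, 0% (0) passed an adjusted p of 0.05 in limma with Benjamini-Hochberg adjustment, and 6 had an unadjusted p under 0.05. All knockout arrays lay above all control arrays for 10 of the fitted miRNAs (7.46%), miR-494 among them. Since miR-494 was chosen with this contrast known, its place among them supports nothing. The median miRNA stood at 0.12 after scaling and at -0.31 without it. Relative to that median miR-494 stood at 0.35 after scaling and 0.32 without it, with 11 and 13 fitted miRNAs above it. With normexp background correction its value relative to the median was 0.13.

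A share of total signal needs no reference probe, but it is itself a scaling by array brightness and so no independent check. The gene-level miR-494 total was 0.127%, 0.0885% and 0.0919% of the summed mouse miRNA signal on control replicates 1, 2 and 3, and 0.142%, 0.131% and 0.129% on the knockout replicates. The knockout shares all lay above the control shares, by a ratio of means of 1.31. The summed signal itself was 69175 ± 7533 units (SD, n = 3) over control and 53252 ± 6648 (SD, n = 3) over knockout arrays, while the miR-494 total was 70.5 ± 14.0 and 71.5 ± 11.7 units (SD, n = 3 each). The authors' deposited series matrix gave miR-494 log2 values of 6.18, 5.89 and 5.89 on control and 6.42, 6.18 and 6.24 on knockout arrays. There knockout replicate 2 tied with control replicate 1.

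**Figure D3:**
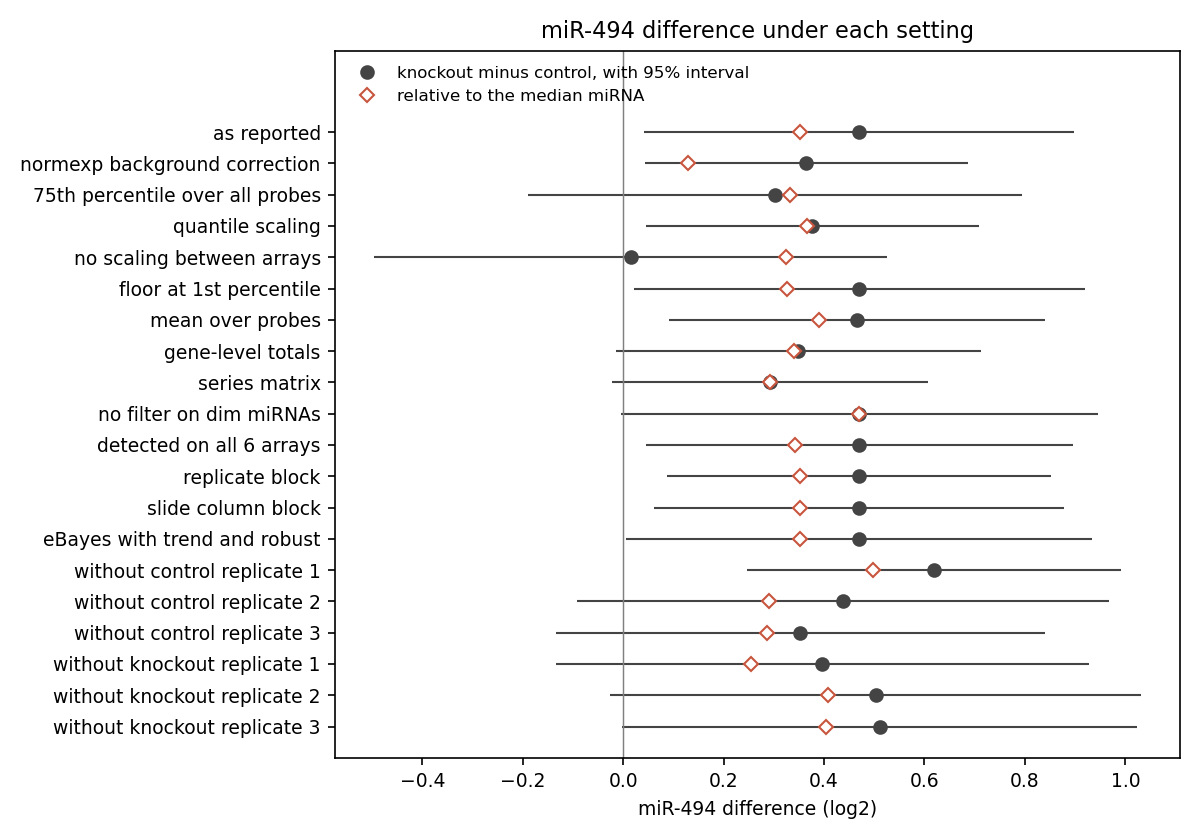
The miR-494 difference, knockout minus control on the log2 scale (x axis), under each processing setting (y axis). Filled circles with bars are fitted values with 95% intervals, 10 of which include 0 among the 19 alternatives, and open diamonds are values relative to the median miRNA; without scaling between arrays the circle falls to 0.015 while the diamond stays at 0.32.

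No genotype difference could be estimated for the neighbours. After scaling and flooring, all 54 neighbour values (9 miRNAs on 6 arrays) were at the floor of -4.32, the 5th percentile of detected signals on the log2 scale. None of the 9 met the filter of detection on at least 3 arrays. miR-494 is thus the 1 member for which a difference was measured, and its difference was set against no neighbour.

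Few miRNAs of the wider region were detected. A list of the region's miRNAs held 76 array entries, both arms included, of which 3 (3.95%) were detected on at least 1 array. On the whole array the share was 159 of 611 (26.0%). These 3 were miR-494, miR-134 and miR-668, and 0 of the other 73 were called by the spot flags or by the gene-level tables. The totals of those 73 ran from -5.21 to 7.30 units, with a median of -0.867. Of the 76, miR-494 alone was detected on all 6 arrays and was the 1 that entered the fit. RefSeq gave a position for 73 of the 76 entries, and none for miR-544, miR-666-3p and miR-666-5p. Among entries with a position, 4 had hairpins that start within 2000 bases of miR-494. They were miR-679 at 259 bases, miR-1193 at 353 bases, miR-329 and miR-543, all at 0 arrays. The opposite arms of the members that the array carries, miR-127*, miR-376a*, miR-376b*, miR-376c* and miR-382*, were also at 0.

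**Figure D4:**
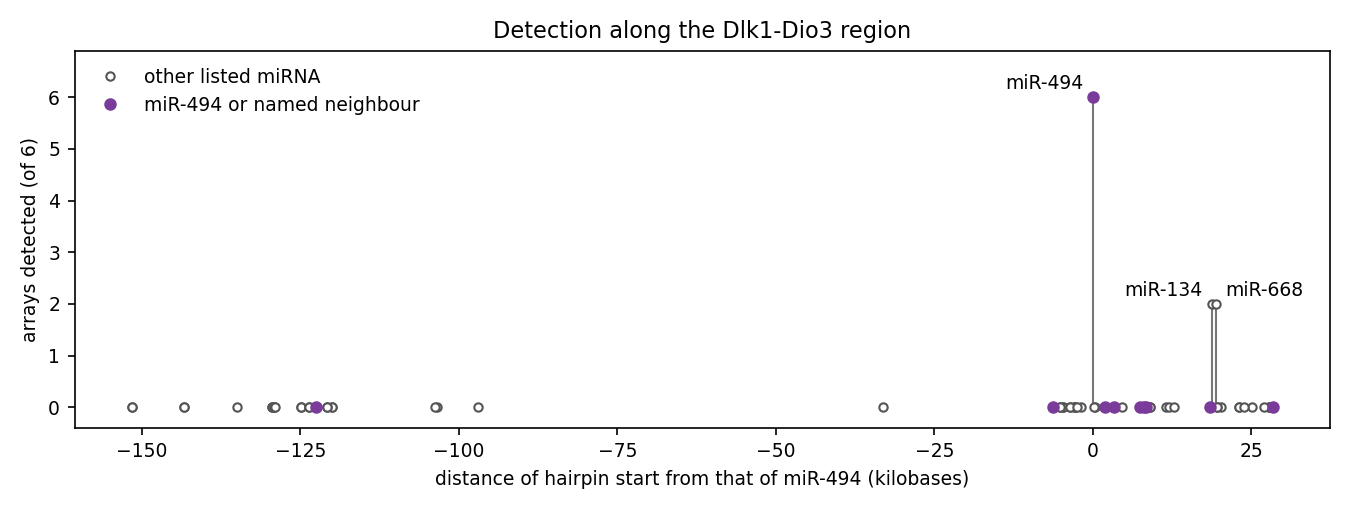
Number of arrays, of 6, on which a miRNA was detected (y axis) against the distance of its hairpin start from that of miR-494 in kilobases (x axis), for the 73 of 76 list entries with a position in RefSeq. miR-494 reaches 6 arrays, miR-134 and miR-668 reach 2, and all others stay at 0.

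miR-134, known as a neuronal miRNA that restrains dendritic spine growth through Limk1, was detected by the spot flags on both replicate 3 arrays and on no other, and by the gene-level call on 4 arrays. Its gene-level totals were 3.30, 10.9 and 23.5 units on control replicates 1, 2 and 3, and 8.05, 7.47 and 21.3 on knockout replicates 1, 2 and 3. The 2 highest arrays were 1 of each genotype, and both lay in slide column 2. Its 4 probes agreed, with 19 of 19 and 18 of 20 spots well above background on those arrays and between 0 and 3 of 20 on the others. Within slide column 1 the knockout minus control difference of the totals was 0.634 units, and within column 2 it was -2.14. Array position and sample cannot be told apart for this gene.

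miR-668, whose hairpin starts 19414 bases downstream of miR-494, lay at the edge of detection. Its totals were 13.5, 8.46 and 15.6 units on control and 11.8, 11.4 and 12.4 on knockout replicates 1, 2 and 3, so the genotypes overlapped. By the spot flags it was detected on control replicate 3 and knockout replicate 2, through 1 of its 4 probes, and the gene-level call put it on 5 arrays. It did not enter the fit.

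The likeness of other miRNAs to miR-494 over the arrays could be compared only outside the region, since miR-494 was the 1 region entry detected often enough to enter the fit. By Pearson r of scaled log2 values over 6 arrays, among the 133 miRNAs compared, the 5 most alike were miR-10a (r = 0.964), let-7d (r = 0.892), miR-103 (r = 0.871), miR-361 (r = 0.867) and let-7b (r = 0.827). miR-10a, encoded in the HoxB cluster, read -1.40, -1.94 and -2.29 on control replicates 1, 2 and 3 and -1.30, -1.39 and -1.46 on the knockout replicates. It was also first when the genotype means were removed (r = 0.957), and on unscaled signals its r with miR-494 was 0.908. With genotype means removed, miR-361 ranked 3, let-7b 14, miR-103 19 and let-7d 21. On unscaled signals r was 0.741 for miR-361, 0.717 for let-7d, 0.655 for let-7b and 0.628 for miR-103. The median r over the 133 was 0.246. These points share 6 arrays and 1 scaling factor per array, so the values describe likeness in these samples.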

How the data were processed

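The scanner intensities, per the file headers from Agilent Feature Extraction 10.5.1.1 on array design 021828, were background-subtracted by the software and not normalized between arrays; the submitters' processing notes name version 9.1. The authors' deposited gene-level tables hold total intensity and a detection call per miRNA, and their deposited series matrix holds log2 values, with the steps behind them not given in the sources used here. Its columns are each named by a sample.

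Spot medians were taken per probe over unflagged spots, scaled to the 75th percentile of that array's 200 reference probes (those detected everywhere), floored and log2 transformed; a miRNA took its brightest probe. All 134 miRNAs detected on at least 3 arrays were fitted together with limma 3.58.1 in R 4.3.3. The text names all 10 members, detected miRNAs of the region, and the 5 miRNAs most like miR-494. Members and lists were chosen with earlier results of these data known. In 50 simulated runs, 27 of 134 miRNAs were given a 2-fold change, and 79.0% of these changes were recovered. The simulated noise was independent between miRNAs, with no error shared by an array. Smaller changes were not simulated, so this share does not apply to the miR-494 difference. The limma p-values, standard errors and intervals use a variance moderated over all fitted miRNAs. They cover no variation beyond these arrays, and the number of arrays limits precision. The main fit did not pair arrays by replicate number. On scaled values, deviations of same-numbered arrays from their group means correlated at 0.17, -0.07 and 0.37, which cannot exclude a pairing. With the replicate block the SE for miR-494 was 0.16, against 0.19 in the main fit. The normexp alternative used the median spot signal, since no mean column was in the files used here.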

Additional observations from a re-analysis of the deposited data

How the results depend on the processing

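Under 19 alternatives to the reported processing, the miR-494 difference ran from 0.015 to 0.62 and kept its sign. It was 0.015 with no scaling between arrays and 0.30 with the 75th percentile over all probes, and its 95% interval included 0 under 10 of the 19. Leaving out each array in turn gave 0.35 to 0.62, lowest without control replicate 3 and highest without control replicate 1. With the replicate block the value was 0.47 and with the slide column block 0.47. Each block held both genotypes equally, so the value could not move. The other filters, the lower floor and the other variance model could not move it either. The sign under these settings therefore adds no support. Normexp background correction gave 0.36 and the series matrix 0.29. The count of miRNAs past the threshold was 0 in limma under all 19, with between 1 and 25 at an unadjusted p under 0.05. The blocks changed no call. Detection of the members and of the wider list kept its counts, 1 and 3, under the other rules tried. Of the 5 miRNAs most like miR-494, 2 were shared with the 5 found after removing genotype means and 3 with the 5 by Spearman's rho, and the cause was not tested. The 2 probes of miR-494 differed by 0.01 in their genotype difference, and by 0.0091 with spot means. With no filter on dim miRNAs the neighbours still gave no estimate, since every value was at the floor.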
